A study of Mus musculus with 10 samples.

Results

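The comparison described here set ileum of mice in which Sox2 and Oct4 were switched on together against ileum of rtTA control mice, with doxycycline (DOX) given to both. It rests on 4 of the 10 arrays of the series, chosen by their labels: 2 arrays of TetON-Oct4 X TetON-Sox2 mice given DOX (Sox2xOct4 +DOX) and 2 of rtTA mice given DOX (rtTA +DOX), all on 1 slide. The rtTA mice are labelled as controls with no TetOP-Sox2 transgene and the others as TetON-Sox2 X TetON-Oct4, so by their labels the groups differ in both transgenes. All were C57BL/6 mice of 6 to 8 weeks that drank 2 mg/ml DOX in 1% sucrose for 2 days, so DOX and sucrose are shared and do not separate the groups. RNA of chopped whole ileum, the stretch of small intestine that meets the colon, was hybridised to 1-colour Agilent mouse arrays. Which promoter drives rtTA, and so in which cells of the tissue it acts, the sources used here do not say. Nothing states whether each array stands for its own mouse, so the p-values rest on a spread between samples that may be technical.

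In a TetON mouse, DOX lets the regulator rtTA bind a tet operator and switch on the transgene behind it. Sox2 is a high-mobility-group transcription factor of early embryos, neural progenitors and the epithelia of the foregut, and it is not normally made in intestinal epithelium. Oct4, encoded by Pou5f1, is a POU-domain factor of the early embryo and germ line that binds DNA beside Sox2 in embryonic stem cells. The intestinal epithelium itself is kept by other factors, Cdx2 among them, and consists mainly of enterocytes that digest and absorb nutrients, beside goblet, Paneth, enteroendocrine, tuft and stem cells.

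Values below are log2 signals over the array's own 75th percentile, so that 0 is that percentile and a signal near -9 is background. The induced genes come first, because they check the labels. The probe of Pou5f1 (chr17:35118388-35118448, build NCBI36/mm8) reads as coding sequence of Oct4. One of the 3 probes of Sox21, a repressor of the Sox family and a relative of Sox2, also reads as coding sequence (chr14:117119024-117119083, minus strand). Both are printed as the arrays carry them, since they decide what the arrays can say about these genes.
Pou5f1 probe: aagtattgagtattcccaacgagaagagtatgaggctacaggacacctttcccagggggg
Sox21 coding probe: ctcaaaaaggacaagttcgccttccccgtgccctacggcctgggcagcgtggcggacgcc

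Pou5f1 gave 2.64 and 0.92 on the 2 Sox2xOct4 +DOX arrays, against -9.28 and -8.57 on the rtTA +DOX arrays, where it was not well above background. The gene rose at least 366-fold with both transgenes (limma adjusted p = 0.000238, with a standard error of 0.62 on the log2 scale). An "at least" fold sets the brighter group's mean against the dimmer group's, raised on each array to at least the lowest signal well above background there. Errors after ± are standard errors of the log2 difference from the fit. The endogenous gene and the transgene cannot be told apart with this probe. Oct4 +DOX, which lay on another slide and shares the rtTA +DOX arrays as its control, was at least 4802-fold over them for the same gene. In that comparison 138 genes were called higher (0.724%) and 54 lower (0.283%). The Sox2 probe was not well above background on any array, at -8.88 and -7.83 in Sox2xOct4 +DOX against -9.07 and -8.29 in rtTA +DOX, so it does not check the Sox2 label. Nanog, another pluripotency factor, was not well above background on any array either.

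Sox21 was read differently by its 3 probes. The probe with the highest mean over all arrays, which stands for the gene here, gave 0.98 and 0.44 in Sox2xOct4 +DOX, against -3.57 and -4.92 in rtTA +DOX (4.96 ± 0.66, adjusted p = 0.00767). Its groups were far apart, and the call was lost only without rtTA +DOX replicate 2 (4.28). A second probe gave -2.06 and -2.29 in Sox2xOct4 +DOX, against -5.72 and -5.44 in rtTA +DOX. The coding probe printed above gave -2.85 and -2.43 in Sox2xOct4 +DOX, against -2.83 and -2.86 in rtTA +DOX, a difference of 0.20 in which the groups overlapped. Cdx2, the main regulator of intestinal identity, gave 4.56 and 4.66 in Sox2xOct4 +DOX, against 5.62 and 5.90 in rtTA +DOX. That difference of -1.16 ± 0.49 did not pass the test (adjusted p = 0.201).

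The array's 75th percentile was a signal of 589.7 to 1612.8 on these 4 arrays, and the share of probes well above background was 66.9 to 70.5%. Replicates correlated with r = 0.959 in Sox2xOct4 +DOX and 0.983 in rtTA +DOX over the 19056 genes tested. The first principal component of the 4 arrays held 63.7% of the variance and separated the groups, and the second held 27.1% and separated the 2 Sox2xOct4 +DOX arrays from each other. Ileal epithelium was present on all 4 arrays: Vil1, which encodes the microvillus protein villin, gave 6.62 and 7.12 in Sox2xOct4 +DOX, against 6.96 and 7.66 in rtTA +DOX.

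The 2 Sox2xOct4 +DOX arrays differed in the levels of smooth muscle, fat and nerve genes. In replicate 1, 21 of 22 smooth muscle genes lay under both rtTA +DOX arrays and their median stood at -1.87 from the rtTA +DOX mean. In replicate 2 it stood at 0.42 with 3 of 22 genes under both. The share of all genes under both was not counted. The adipocyte genes had medians of -1.63 in replicate 1 and 0.67 in replicate 2, and the genes of enteric neurons and glia -1.18 and 0.36. Adiponectin (Adipoq) showed the gap plainly, at -8.13 and 0.60 in Sox2xOct4 +DOX, against -1.40 and 0.47 in rtTA +DOX, and was not well above background in replicate 1. Cell cycle genes ran the other way, with medians of 1.35 in replicate 1 and -0.15 in replicate 2. In the 2 Sox2xOct4 +DOX arrays, 148 genes were over 4-fold higher in replicate 1 and 734 in replicate 2, against 66 and 133 in the rtTA +DOX pair. In bulk tissue, fewer cells of a type and less RNA per cell cannot be told apart.

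**Figure D1:**
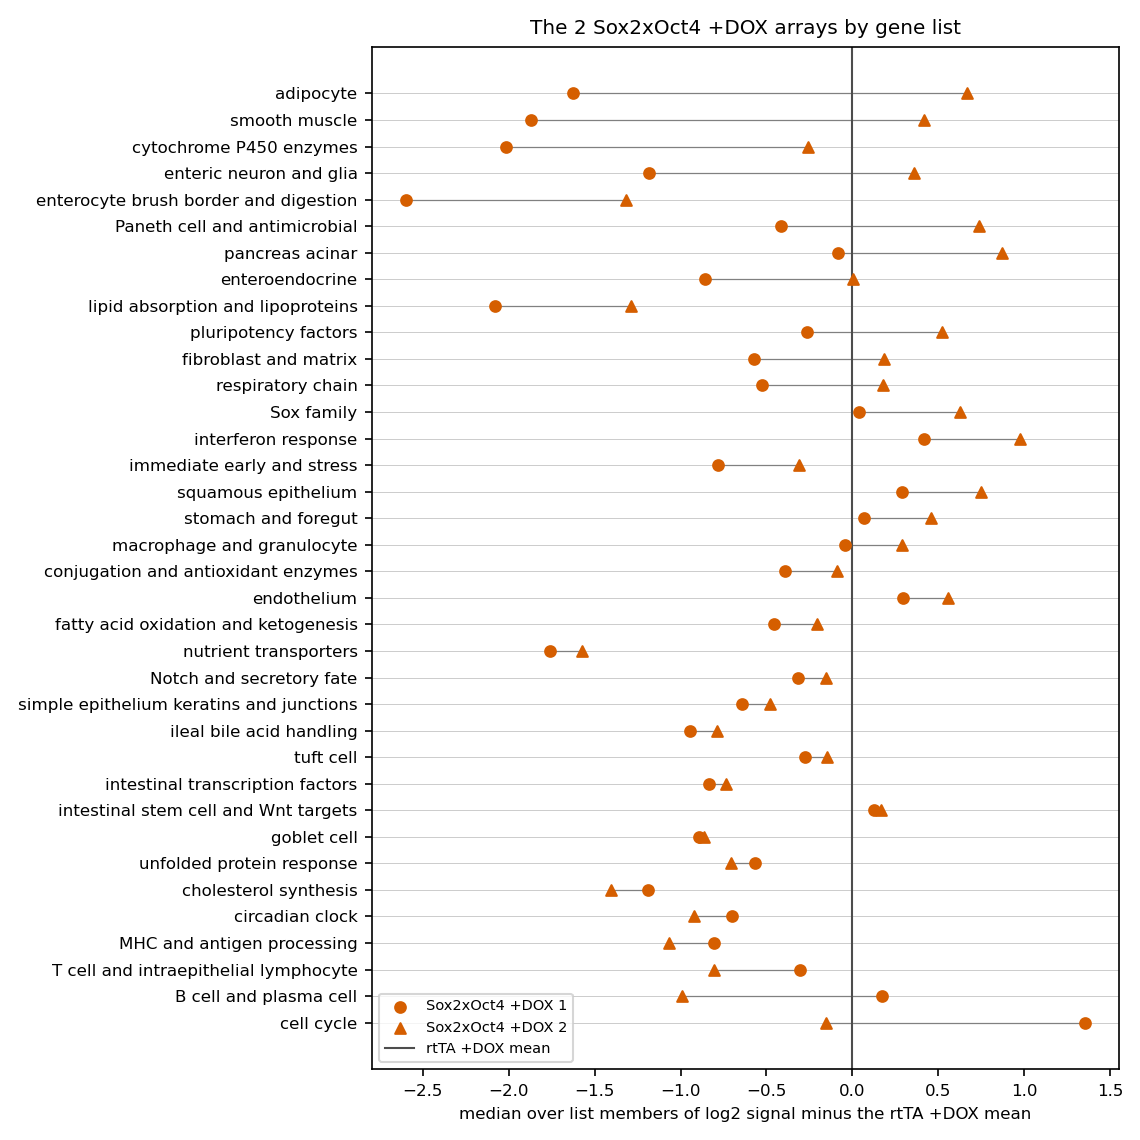
The x axis gives, for each gene list on the y axis, the median over its members of the log2 signal minus the rtTA +DOX mean, in Sox2xOct4 +DOX replicate 1 (circles) and replicate 2 (triangles), with the vertical line at the rtTA +DOX mean. The replicates lie on opposite sides of the line for smooth muscle (-1.87 and 0.42), adipocyte (-1.63 and 0.67) and cell cycle genes (1.35 and -0.15), and both lie well below it for nutrient transporters (-1.76 and -1.57) and cholesterol synthesis (-1.19 and -1.41).

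Here "rose" and "fell" are used only of genes called, those with an adjusted p below 0.05 across all genes tested. Of 19056 genes, 1208 were called (6.34%), 608 higher (3.19%) and 600 lower (3.15%) in Sox2xOct4 +DOX, including 709 with a change beyond 4-fold (3.72%). The counts of gene lists below are to be read against these shares of all genes. The median log2 difference of all genes was 0.07. Groups without overlap were common, at 52.7% of genes, and are no mark of a change by themselves. The count was lower in each of the 4 fits that left out 1 of these arrays. Such a fit leaves 1 array in a group and fewer degrees of freedom. A call lost there, here and below, can thus reflect lost precision and does not show that a result rested on that array. In every one of these 4 fits as well as the full fit, 82 genes were called, 66 higher and 16 lower. An exact permutation test of 2 against 2 arrays cannot go below p = 0.33 (two-sided).

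The largest rises were in genes that the ileum of rtTA +DOX mice hardly showed. Calca, which encodes calcitonin and the neuropeptide CGRP, gave 3.49 and 6.07 in Sox2xOct4 +DOX, against -6.35 and -6.11 in rtTA +DOX (11.01 ± 1.09, adjusted p = 0.00259). A second Calca probe gave -5.53 and -4.71 in Sox2xOct4 +DOX, against -9.20 and -8.50 in rtTA +DOX, higher as well but by 3.73 only. Lipf, which encodes gastric lipase, gave 3.56 and 4.68 in Sox2xOct4 +DOX, against -6.39 and -6.75 in rtTA +DOX (10.69 ± 0.71, adjusted p = 0.000409). Both were well above background on 1 of the 2 rtTA +DOX arrays, and with signals raised to the lowest one well above background the difference was 11.01 for Calca and 10.53 for Lipf. For both genes the dimmest Sox2xOct4 +DOX array stood more than 9 log2 units over the brightest rtTA +DOX array. Nepn, which encodes the small proteoglycan nephrocan and is known as a gene of mid- and hindgut endoderm in the mouse embryo, gave 0.59 and 2.57 in Sox2xOct4 +DOX, against -7.54 and -6.85 in rtTA +DOX. Its rise was at least 318-fold (adjusted p = 0.000441).

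Several of the other large rises were close between replicates. Slc7a3, a transporter of cationic amino acids, gave 3.27 and 3.04 in Sox2xOct4 +DOX, against -4.22 and -4.48 in rtTA +DOX (7.50 ± 0.41, adjusted p = 0.000165). Nr0b1, which encodes the orphan nuclear receptor Dax1 and is active in mouse embryonic stem cells, gave -1.81 and -1.47 in Sox2xOct4 +DOX, against -9.15 and -8.40 in rtTA +DOX, at least 34.2-fold higher (adjusted p = 0.000165). Abo, the glycosyltransferase of the blood group antigens, gave -2.18 and -1.93 in Sox2xOct4 +DOX, against -9.34 and -8.63 in rtTA +DOX, at least 25.6-fold higher. In each of these 3 genes the Sox2xOct4 +DOX replicates lay within 0.4 of each other. Slc37a2, a sugar phosphate exchanger, rose by 7.38 ± 0.56 and Cfap299, a protein of cilia and flagella, by 8.16 ± 0.74 (7.90 with signals raised likewise, since 1 of the 2 rtTA +DOX arrays was well above background). The uncharacterised 4930432K21Rik was at least 96-fold higher, and the odorant receptor gene Olfr713 at least 29.5-fold, though its probe may also bind transcripts of related receptors. Every call named so far in this paragraph and the one before held in each of the 4 fits without 1 array.

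Others of the 15 largest rises were uneven between replicates. Krt6a, a keratin of stratified epithelia, gave 0.51 and -2.63 in Sox2xOct4 +DOX, against -8.77 and -7.47 in rtTA +DOX, at least 51.1-fold higher (adjusted p = 0.0076). Umod, the gene of the kidney protein uromodulin, gave -0.22 and -3.46 in Sox2xOct4 +DOX, against -9.27 and -8.59 in rtTA +DOX, at least 29.8-fold higher. Cited1, a transcriptional coactivator, gave 1.86 and 5.29 in Sox2xOct4 +DOX, against -3.51 and -3.09 in rtTA +DOX (6.88 ± 0.92, adjusted p = 0.00767). Krt6a and Umod were brighter in replicate 1 and Cited1 in replicate 2, but no array of one group reached the other group, as the choice of the 15 required. Without rtTA +DOX replicate 1 the calls of Krt6a (6.41), Umod (6.75) and Cited1 (6.67) were lost. For genes given by a bound, fitted differences such as these rest partly on signals near background and are not sizes. Anxa10, an annexin made in the stomach, reached at least 55.5-fold, and its call held without each single array.

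**Figure D2:**
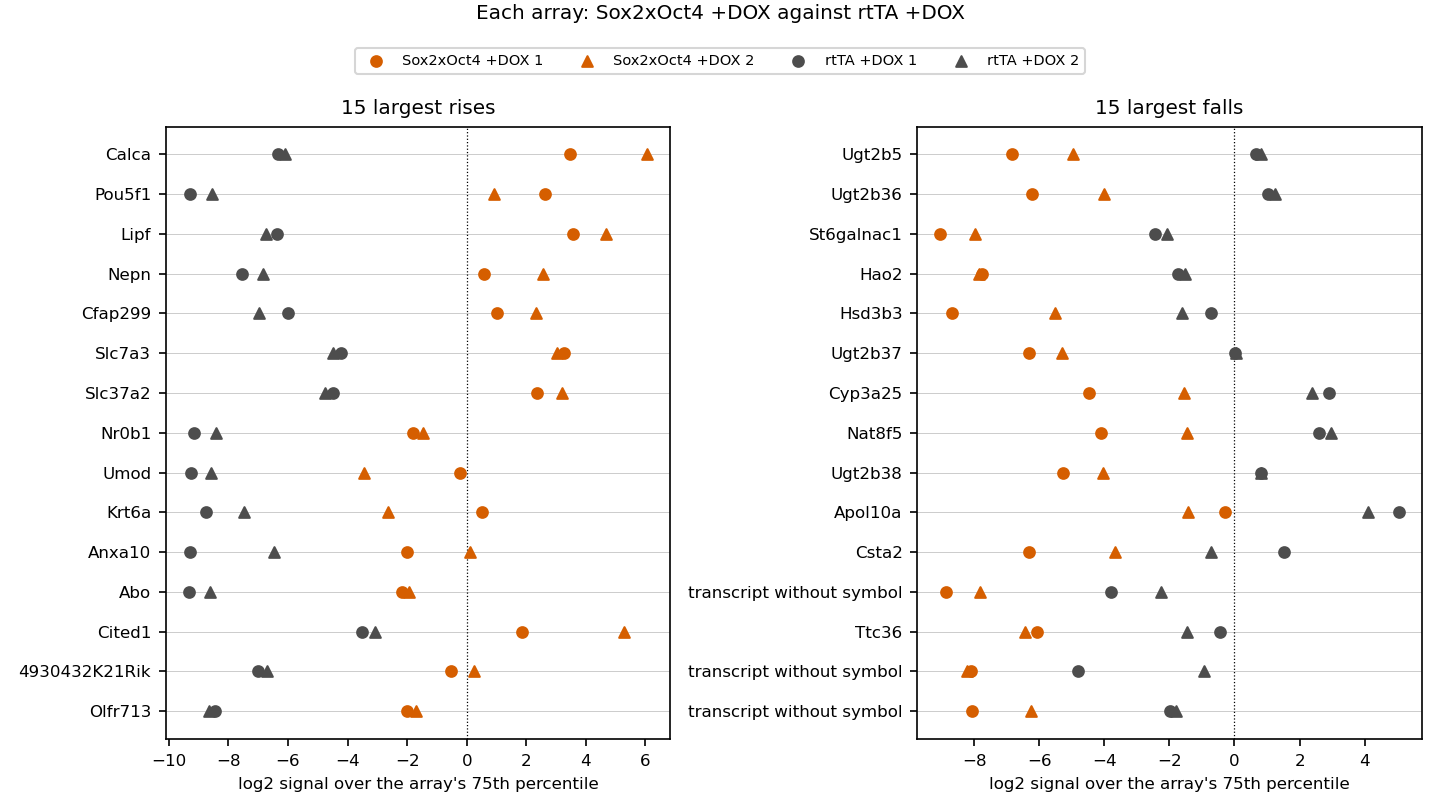
Each point is 1 array, with its log2 signal relative to the 75th percentile on the x axis and, on the y axis, the 15 genes with the largest rises (left) and the 15 with the largest falls (right) among genes called whose groups did not overlap. Sox2xOct4 +DOX is orange and rtTA +DOX grey, with replicate 1 as circles and replicate 2 as triangles. Calca, at 3.49 and 6.07 in Sox2xOct4 +DOX against -6.35 and -6.11 in rtTA +DOX, heads the rises, and Ugt2b5, at -6.84 and -4.95 against 0.65 and 0.81, heads the falls.

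Promoters of these 15 genes were searched for the octamer bound by Oct4 (ATGCAAAT) and for a Sox motif (CATTGTT), on both strands, in the 300-base RefSeq window around the transcription start (GRCm38.p6). Windows were given for 11 of the 15. The octamer was in none of them and is in those of 1.97% of all genes. The Sox motif was in 3 of the 11, Lipf, Olfr713 and Pou5f1, and is in those of 4.33% of all genes. For Pou5f1 the window is that of the endogenous gene. Its probe does not tell that gene from the transgene, so the match cannot be set beside its rise. Lipf held it at 2 places, 210 and 48 bases before the start, and is printed because no other of these windows held it more than once (chr19:33960998-33961246, plus strand, with the matches in capitals). A match is a description of these letters and not a binding site.
Lipf promoter: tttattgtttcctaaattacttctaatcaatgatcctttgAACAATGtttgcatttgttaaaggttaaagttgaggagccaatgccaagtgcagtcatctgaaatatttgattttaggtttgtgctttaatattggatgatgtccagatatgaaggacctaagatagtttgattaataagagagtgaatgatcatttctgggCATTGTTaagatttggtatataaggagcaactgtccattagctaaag

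The largest falls included 4 UDP-glucuronosyltransferases. Ugt2b5, which attaches glucuronic acid to steroids and other substrates, gave -6.84 and -4.95 in Sox2xOct4 +DOX, against 0.65 and 0.81 in rtTA +DOX (-6.63 ± 0.60, adjusted p = 0.00174). Its relatives on chromosome 5 fell too, Ugt2b36 (-6.26), Ugt2b37 (-5.84) and Ugt2b38 (-5.46). These genes are near-identical, so which of them changed is uncertain. Hao2, a hydroxyacid oxidase, gave -7.75 and -7.85 in Sox2xOct4 +DOX, against -1.72 and -1.52 in rtTA +DOX, at least 28.3-fold lower (adjusted p = 0.00055). St6galnac1, which adds sialic acid to mucins, was not well above background in Sox2xOct4 +DOX at -9.04 and -7.98, against -2.44 and -2.06 in rtTA +DOX, at least 18.3-fold lower (adjusted p = 0.00055). Both genes were thus near background on both double-transgenic arrays.

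Hsd3b3, an enzyme of steroid synthesis (-5.92, well above background on 1 of the 2 Sox2xOct4 +DOX arrays), Cyp3a25, a cytochrome P450 (-5.66), and Nat8f5, of an acetyltransferase family (-5.57), fell as well. So did Apol10a, an apolipoprotein L (-5.44), Csta2, of a family of cysteine protease inhibitors (-5.41), and Ttc36 (-5.3, well above background on 1 of the 2 Sox2xOct4 +DOX arrays). The other 3 of the 15 are transcripts known here only by a sequence identifier. Ugt2b5, Ugt2b37, Ugt2b38, Hao2 and St6galnac1 were called without each single array, and Ugt2b36 was lost only without rtTA +DOX replicate 1 (-6.36). Hsd3b3 (-4.34 to -6.36), Cyp3a25 (-4.20 to -5.91), Nat8f5 (-4.24 to -5.74) and Csta2 (-4.09 to -6.54) were each lost without either rtTA +DOX replicate and without Sox2xOct4 +DOX replicate 1. Apol10a was lost without rtTA +DOX replicate 1 (-4.97) and 2 (-5.92), and Ttc36 whichever of the 4 arrays was left out (-4.79 to -5.80).

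Foregut genes were examined next, as Sox2 marks that epithelium. Of 16 stomach and foregut genes tested, 3 rose and none fell, with a list median of 0.075, against 0.066 over all genes. A further 12 of the list were not well above background in any group. The 3 that rose were Lipf, Anxa10 and Trp63, and they were called without each single array. Trp63, which encodes p63, the regulator of stratified epithelia, gave -2.65 and -2.75 in Sox2xOct4 +DOX, against -7.58 and -8.27 in rtTA +DOX, at least 16.4-fold higher (adjusted p = 0.00122). Other stomach markers, chosen with results known, were not called: Gkn1 lay near background on all 4 arrays. Tff1 gave -5.71 and -4.93 in Sox2xOct4 +DOX, against -5.40 and -5.13 in rtTA +DOX, and the proton pump subunit Atp4a gave -5.03 and -4.60, against -6.45 and -6.25 (adjusted p = 0.0933), well above background on 1 of the 2 rtTA +DOX arrays.

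The squamous epithelium list had 4 rises and no fall among 28 genes (median 0.48). These were Trp63, Krt6a, the desmosome protein gene Pkp1 and the fatty acid binding protein gene Fabp5. Pkp1 gave 4.30 and 4.05 in Sox2xOct4 +DOX, against 2.17 and 2.53 in rtTA +DOX (1.83 ± 0.28, adjusted p = 0.0125), and was lost without either rtTA +DOX replicate (1.65 and 2.01) or Sox2xOct4 +DOX replicate 1 (1.70). Fabp5, well above background on 1 of the 2 Sox2xOct4 +DOX arrays, was at least 2.07-fold higher. Its call was lost with signals raised to the lowest one well above background (adjusted p = 0.0682) and whichever of the 4 arrays was left out. The basal keratins were not called: Krt5 gave -5.08 and -4.91 in Sox2xOct4 +DOX, against -5.47 and -5.10 in rtTA +DOX, and Krt14 gave -4.47 and -2.72, against -4.40 and -4.29. Without rtTA +DOX replicate 1 the count was 1, without replicate 2 it was 2, and without Sox2xOct4 +DOX replicate 1 it was 2.

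Enterocyte genes of digestion and absorption were called lower more often than higher. Among 31 brush border and digestive genes tested there were 7 falls and no rise, and 30 had values below 0 (median -2.15, against 0.07 for all genes). The median stood at -2.60 from the rtTA +DOX mean in Sox2xOct4 +DOX replicate 1 and at -1.32 in replicate 2, so its size depended on the array. Eps8, which caps the actin bundles of microvilli, gave 1.55 and 1.37 in Sox2xOct4 +DOX, against 3.34 and 3.13 in rtTA +DOX (-1.77 ± 0.28, adjusted p = 0.0135). Plb1, a brush border phospholipase, gave 0.73 and 1.88 in Sox2xOct4 +DOX, against 4.39 and 5.17 in rtTA +DOX (-3.48 ± 0.65, adjusted p = 0.0225). Mep1b, a meprin protease, fell by 2.91 ± 0.60 and Ace, angiotensin converting enzyme, by 2.16 ± 0.47. No array of one group reached the other in these 4 genes, as in 27 of the 31 in the list and 52.7% of all genes. The count of 7 was 0 without either rtTA +DOX replicate, 1 without Sox2xOct4 +DOX replicate 1 and 13 without Sox2xOct4 +DOX replicate 2. Plb1 (-2.90 to -3.87), Mep1b (-2.42 to -3.16) and Ace (-1.69 to -2.63) were lost without either rtTA +DOX replicate or Sox2xOct4 +DOX replicate 1, and Eps8 without either rtTA +DOX replicate (-1.67 and -1.88).

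Of 31 nutrient transporters, 11 fell and 1 rose (median -1.76). Slc1a1, the neuronal and epithelial glutamate transporter, gave 0.21 and 0.03 in Sox2xOct4 +DOX, against 3.65 and 3.49 in rtTA +DOX (-3.45 ± 0.39, adjusted p = 0.00416), and was called without each single array. Slc5a8, a carrier of short-chain fatty acids and other monocarboxylates, gave -0.55 and 0.29 in Sox2xOct4 +DOX, against 4.04 and 3.45 in rtTA +DOX (-3.88 ± 0.51, adjusted p = 0.00727), and was lost only without rtTA +DOX replicate 1 (-3.58). Slc1a1 was thus even between replicates and Slc5a8 less so, but both were named for their small p, which favours close replicates. Slc7a7, a basolateral transporter of cationic amino acids, fell by 1.84 ± 0.34. It was lost without either rtTA +DOX replicate (-1.91 and -1.76) or Sox2xOct4 +DOX replicate 1 (-1.51). The member that rose was Slc19a3, a thiamine transporter, at -3.16 and -2.89 in Sox2xOct4 +DOX, against -7.18 and -7.14 in rtTA +DOX, at least 13.1-fold higher (adjusted p = 0.000312). The 11 falls became 1 without rtTA +DOX replicate 1, 2 without rtTA +DOX replicate 2, 2 without Sox2xOct4 +DOX replicate 1 and 8 without Sox2xOct4 +DOX replicate 2.

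The lipid absorption and lipoprotein list counted 8 falls and 1 rise among 28 genes (median -1.66), with falls among enzymes that rebuild dietary fat inside the enterocyte. Its median stood at -2.08 in replicate 1 and -1.29 in replicate 2. Mttp, which loads lipid onto apolipoprotein B, gave -0.07 and 0.78 in Sox2xOct4 +DOX, against 3.99 and 3.34 in rtTA +DOX (-3.31 ± 0.53, adjusted p = 0.0139). Soat2, which esterifies cholesterol, gave -1.66 and -0.75 in Sox2xOct4 +DOX, against 2.14 and 1.56 in rtTA +DOX (-3.06 ± 0.56, adjusted p = 0.0214). Acsl5, which activates fatty acids, gave 3.78 and 3.77 in Sox2xOct4 +DOX, against 5.05 and 5.31 in rtTA +DOX (-1.40 ± 0.27, adjusted p = 0.0243). Cd36, a fatty acid translocase, went the other way, at 0.37 and 1.37 in Sox2xOct4 +DOX, against -2.86 and -2.05 in rtTA +DOX (3.32 ± 0.48, adjusted p = 0.0100). Its call was lost without rtTA +DOX replicate 1 (2.92). Mttp (-2.88 to -3.63) and Soat2 (-2.60 to -3.35) were lost without either rtTA +DOX replicate or Sox2xOct4 +DOX replicate 1, and Acsl5 whichever array was left out (-1.27 to -1.54). The 8 falls became 0 without either rtTA +DOX replicate or Sox2xOct4 +DOX replicate 1, and 6 without Sox2xOct4 +DOX replicate 2.

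Of 12 genes of ileal bile acid handling, 2 fell. Slc51b, a subunit of the basolateral bile acid exporter, gave 2.44 and 3.20 in Sox2xOct4 +DOX, against 5.24 and 5.66 in rtTA +DOX (-2.64 ± 0.47, adjusted p = 0.0206). Abcc2, an apical exporter of conjugates, fell by 3.42 ± 0.70. Both were lost without either rtTA +DOX replicate or Sox2xOct4 +DOX replicate 1 (Slc51b -2.26 to -2.85, Abcc2 -2.36 to -3.51), so the count was 0 there, and it was 3 without Sox2xOct4 +DOX replicate 2. Slc10a2, the apical bile acid transporter of the ileum, gave -0.11 and 3.81 in Sox2xOct4 +DOX, against 4.72 and 4.79 in rtTA +DOX, so the deficit was mainly in replicate 1. Fabp6, the ileal bile acid binding protein, gave 1.79 and 2.46 in Sox2xOct4 +DOX, against 3.74 and 1.58 in rtTA +DOX, and the groups overlapped.

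**Figure D3:**
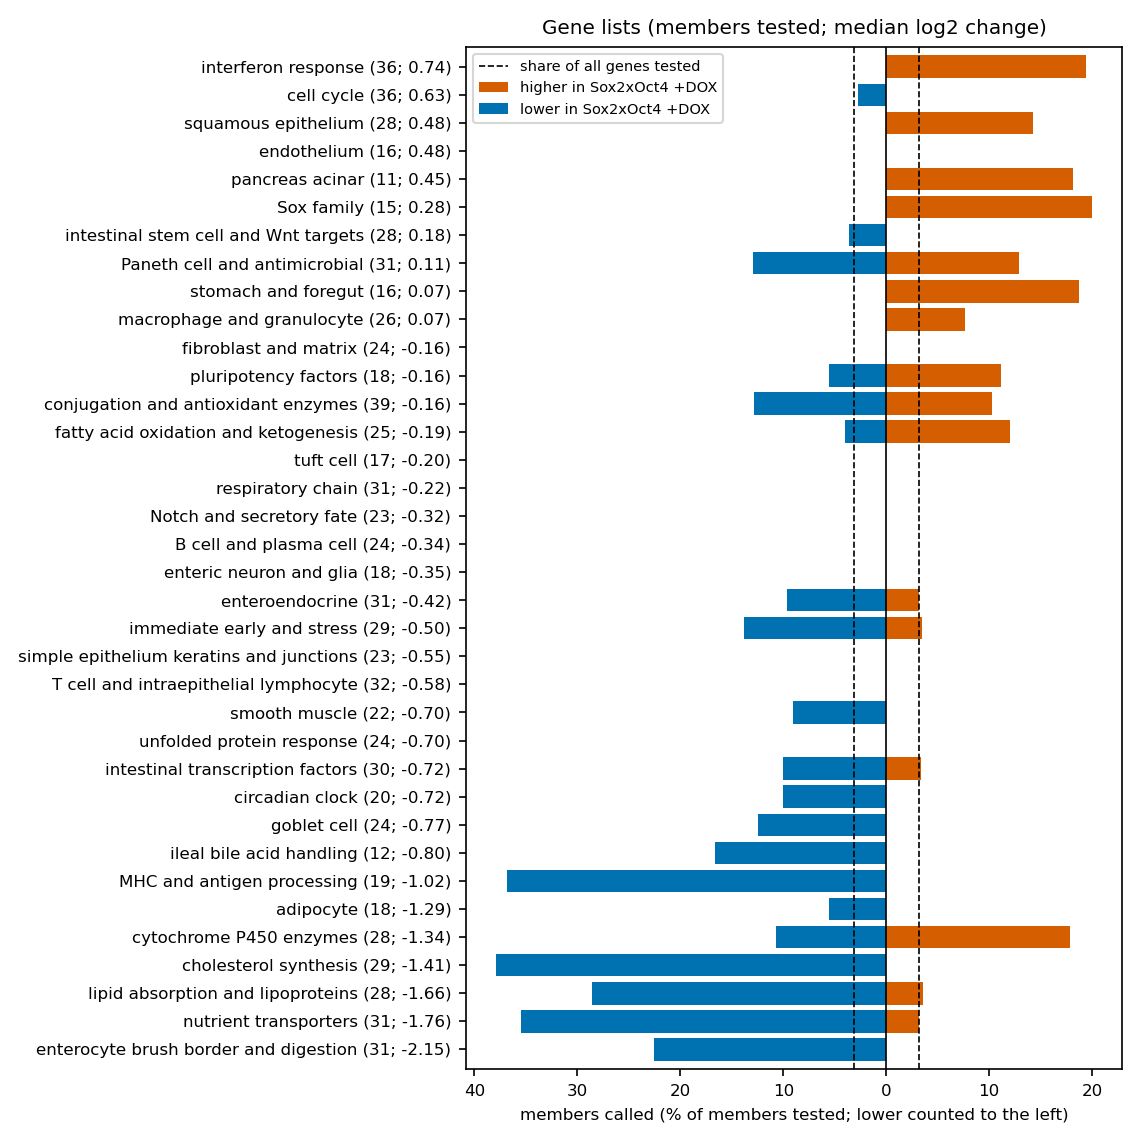
For each gene list on the y axis, bars give the percentage of its tested members called higher (orange, to the right) and lower (blue, to the left) in Sox2xOct4 +DOX against rtTA +DOX, and the dashed lines mark the shares of all 19056 genes, 3.19% higher and 3.15% lower. The numbers after each name are the members tested and their median log2 difference. Lists of absorption and cholesterol synthesis, with medians of -1.41 to -2.15, stand at the bottom, and bars to the left are longest there and for MHC and antigen processing, with 7 of 19 called.

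Of 29 cholesterol synthesis genes tested, 11 fell and none rose, 26 had values below 0 and the median was -1.41. Cyp51, lanosterol demethylase, gave -0.05 and -0.47 in Sox2xOct4 +DOX, against 2.23 and 1.78 in rtTA +DOX (-2.26 ± 0.32, adjusted p = 0.00979). Sqle, squalene epoxidase, gave 2.66 and 2.35 in Sox2xOct4 +DOX, against 4.40 and 4.35 in rtTA +DOX (-1.87 ± 0.28, adjusted p = 0.0120). Mvd, mevalonate diphosphate decarboxylase, gave 0.60 and 0.21 in Sox2xOct4 +DOX, against 2.31 and 2.15 in rtTA +DOX (-1.83 ± 0.28, adjusted p = 0.0121). The 2 replicates of each group lay within 0.5 of each other in these 3 genes. Hsd17b7, an enzyme of late sterol synthesis, fell by 2.56 ± 0.39. Among the other members called were Msmo1, Fdps, Fdft1, Nsdhl and Mvk, further enzymes of the pathway.

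Srebf2 and Srebf1, the transcription factors of this pathway, are named with their values seen and were not called, at -0.49 and 0.12. Acaca, the first enzyme of fatty acid synthesis, had the highest value of the list at 1.39 and was not called. The replicates of Sox2xOct4 +DOX were close for the list as a whole, with medians of -1.19 and -1.41 from the rtTA +DOX mean. The count of 11 was 0 without rtTA +DOX replicate 1, 1 without rtTA +DOX replicate 2, 4 without Sox2xOct4 +DOX replicate 1 and 8 without Sox2xOct4 +DOX replicate 2, while the median stayed between -1.19 and -1.41 in those without a Sox2xOct4 +DOX array. Cyp51 was lost only without rtTA +DOX replicate 1 (-2.04), Sqle (-1.84 and -1.90) and Mvd (-1.75 and -1.91) without either rtTA +DOX replicate, and Hsd17b7 also without Sox2xOct4 +DOX replicate 1 (-2.21 to -2.92). The sterol regulatory element TCACNCCAC, a motif chosen with these results known, was in none of the 6 promoter windows given for the 11 genes and is in those of 1.44% of all genes.

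Enzymes of oxidation and conjugation changed in both directions. Of 28 cytochrome P450 enzymes, 5 rose and 3 fell (median -1.34). The median rested mainly on replicate 1, at -2.02 there and -0.26 in Sox2xOct4 +DOX replicate 2. Cyp26b1, which breaks down retinoic acid, gave 1.33 and 1.00 in Sox2xOct4 +DOX, against -2.54 and -3.18 in rtTA +DOX (4.03 ± 0.45, adjusted p = 0.00408), and was called without each single array. Cyp2d34 rose by 4.18 ± 0.67 and Cyp2d26 fell by 2.74 ± 0.48, members of a family whose probes may bind each other's transcripts. Cyp2d34 was lost without rtTA +DOX replicate 1 (3.16) and Sox2xOct4 +DOX replicate 1 (4.35), and Cyp2d26 without these and rtTA +DOX replicate 2 (-2.22 to -2.80). The 8 calls became 1 without rtTA +DOX replicate 1, 3 without rtTA +DOX replicate 2 and 2 without Sox2xOct4 +DOX replicate 1. Without Sox2xOct4 +DOX replicate 2 the balance turned, with 2 rises and 7 falls.

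Of 39 conjugation and antioxidant enzymes, 4 rose and 5 fell (median -0.16). Gsta3, a glutathione transferase, gave 3.84 and 4.26 in Sox2xOct4 +DOX, against -0.54 and 0.09 in rtTA +DOX (4.27 ± 0.38, adjusted p = 0.00168). Adh7, the alcohol dehydrogenase of stomach and oesophagus, gave -2.23 and -2.87 in Sox2xOct4 +DOX, against -9.22 and -7.38 in rtTA +DOX, at least 18.2-fold higher (adjusted p = 0.00212). Both were called without each single array. Ugt2b5 was among those that fell. The 9 calls became 3 without rtTA +DOX replicate 1, 5 without rtTA +DOX replicate 2 and 6 without Sox2xOct4 +DOX replicate 1.

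Of 25 genes of fatty acid oxidation and ketogenesis tested, 3 rose and 1 fell (median -0.19). Over all genes 3.19% were higher and 3.15% lower, so the 1 fall lay near that share. Pdk4, which shuts off pyruvate dehydrogenase, gave 0.52 and 1.66 in Sox2xOct4 +DOX, against -2.52 and -1.87 in rtTA +DOX (3.29 ± 0.58, adjusted p = 0.0200). Acot1, an acyl-CoA thioesterase, gave 3.21 and 2.25 in Sox2xOct4 +DOX, against -1.11 and 0.00 in rtTA +DOX (3.29 ± 0.51, adjusted p = 0.0125). Vnn1, a pantetheinase, fell by 3.03 ± 0.51. Pdk4 was lost without either rtTA +DOX replicate or Sox2xOct4 +DOX replicate 2 (2.72 to 3.61), Acot1 without rtTA +DOX replicate 1 (2.73) and Sox2xOct4 +DOX replicate 1 (2.80), and Vnn1 without either rtTA +DOX replicate or Sox2xOct4 +DOX replicate 1 (-2.63 to -3.32). The count of 4 was 0 and 1 without rtTA +DOX replicates 1 and 2, 2 without Sox2xOct4 +DOX replicate 1 and 5 without Sox2xOct4 +DOX replicate 2.

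Among genes of Paneth cells and antimicrobial defence, 4 of 31 rose and 4 fell. Reg3a, a secreted lectin that kills bacteria, gave -1.58 and -0.67 in Sox2xOct4 +DOX, against 3.67 and 4.12 in rtTA +DOX (-5.02 ± 0.41, adjusted p = 0.00102). S100a9, a subunit of calprotectin, gave 0.54 and 1.15 in Sox2xOct4 +DOX, against -4.71 and -4.37 in rtTA +DOX (5.38 ± 0.58, adjusted p = 0.00358). Both held without each single array, and for both the groups lay more than 4 log2 units apart. S100g, which binds calcium in enterocytes, rose by 4.49 ± 0.69 and Duoxa2, which matures the oxidase Duox2, fell by 4.25 ± 0.66. S100g was lost without rtTA +DOX replicate 1 (3.34) and Duoxa2 without either rtTA +DOX replicate (-4.88 and -3.62). The 8 calls became 2 without rtTA +DOX replicate 1 and 4 without rtTA +DOX replicate 2. S100a9 is also made by neutrophils, and of 26 macrophage and granulocyte genes 2 rose, the chemokine receptors Ccr3 (2.65 ± 0.47, well above background on 1 of the 2 rtTA +DOX arrays) and Ccr2 (1.86 ± 0.35), with summed linear signals of 98.0 and 166.1 in Sox2xOct4 +DOX, against 134.8 and 149.7 in rtTA +DOX. The part of such cells in the rise of S100a9 was not tested. Ccr2 was lost whichever array was left out (1.80 to 1.92) and Ccr3 without all but rtTA +DOX replicate 2 (1.92 to 2.84).

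Of 24 goblet cell genes, 3 fell: St6galnac1, the calpain Capn9 (-3.98 ± 0.74, adjusted p = 0.0223) and Tpsg1. The median of the list was -0.77. Capn9 was lost without either rtTA +DOX replicate (-3.86 and -4.09) or Sox2xOct4 +DOX replicate 2 (-3.29), and the count became 1 in each of these 3 fits. Of 31 enteroendocrine genes, 1 rose and 3 fell, against 3.19% higher and 3.15% lower over all genes, so the 1 rise lay near that share. Pyy, peptide YY, gave 2.47 and 3.0 in Sox2xOct4 +DOX, against 4.59 and 4.66 in rtTA +DOX (-1.89 ± 0.35, adjusted p = 0.0211). Cck, cholecystokinin, fell by 2.98 ± 0.61, while Pcsk1, which cleaves prohormones, rose by 2.05 ± 0.40. Pyy was lost without either rtTA +DOX replicate or Sox2xOct4 +DOX replicate 1 (-1.63 to -1.93), and Cck (-2.52 to -3.44) and Pcsk1 (1.73 to 2.37) whichever array was left out. The enteroendocrine count of 4 became 0 without either rtTA +DOX replicate or Sox2xOct4 +DOX replicate 1, and 2 without Sox2xOct4 +DOX replicate 2. Of 28 genes of intestinal stem cells and Wnt targets, 1 fell, near the 3.15% of all genes, and none rose. It was Olfm4, a stem cell glycoprotein, at -3.90 and -2.0 in Sox2xOct4 +DOX, against 0.02 and 1.1 in rtTA +DOX (-3.50 ± 0.80, adjusted p = 0.0417). Olfm4 was lost without either rtTA +DOX replicate or Sox2xOct4 +DOX replicate 1 (-2.56 to -4.04).

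Interferon response genes and antigen presentation genes were called in opposite directions. Of 36 interferon response genes, 7 rose and none fell (median 0.74). Ifi44 gave -0.65 and -0.59 in Sox2xOct4 +DOX, against -3.79 and -3.70 in rtTA +DOX (3.13 ± 0.36, adjusted p = 0.00452). Oas2, which senses double-stranded RNA, gave 0.66 and 0.23 in Sox2xOct4 +DOX, against -2.17 and -3.05 in rtTA +DOX (3.06 ± 0.44, adjusted p = 0.0097). Bst2, tetherin, gave 3.50 and 4.30 in Sox2xOct4 +DOX, against 1.44 and 2.09 in rtTA +DOX (2.13 ± 0.39, adjusted p = 0.0214), and Mx2, an antiviral GTPase, rose by 2.42 ± 0.47. The list was not uniform, since 10 of the 36 had values below 0, none of them called. Ifi44 was lost only without rtTA +DOX replicate 1 (3.08), Oas2 without rtTA +DOX replicate 2 (2.62) and Sox2xOct4 +DOX replicate 1 (2.84), and Bst2 (1.73 to 2.45) and Mx2 (1.85 to 2.50) without either rtTA +DOX replicate or Sox2xOct4 +DOX replicate 2. The count of 7 was 1 without either rtTA +DOX replicate, 5 without Sox2xOct4 +DOX replicate 1 and 2 without Sox2xOct4 +DOX replicate 2.

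The interferon-stimulated response element, searched as 2 TTTC blocks with any 2 bases between them on both strands and chosen with these results known, was in 2 of the 3 promoter windows given for the 7 genes that rose and is in those of 3.99% of all genes. Ifit3, which encodes an antiviral protein with tetratricopeptide repeats, held it at 156 and 122 bases before its start (chr19:34583333-34583456, plus strand). Bst2 held 2 overlapping matches at 130 and 124 bases (chr8:71537547-71537642, minus strand). Both are shown with the matches in capitals, to set the letters beside the genes that rose.
Ifit3 promoter: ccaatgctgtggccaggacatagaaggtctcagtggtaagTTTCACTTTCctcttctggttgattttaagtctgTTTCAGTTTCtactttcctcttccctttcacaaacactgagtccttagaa
Bst2 promoter: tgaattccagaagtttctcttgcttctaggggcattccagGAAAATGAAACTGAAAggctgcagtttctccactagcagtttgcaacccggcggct

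**Figure D4:**
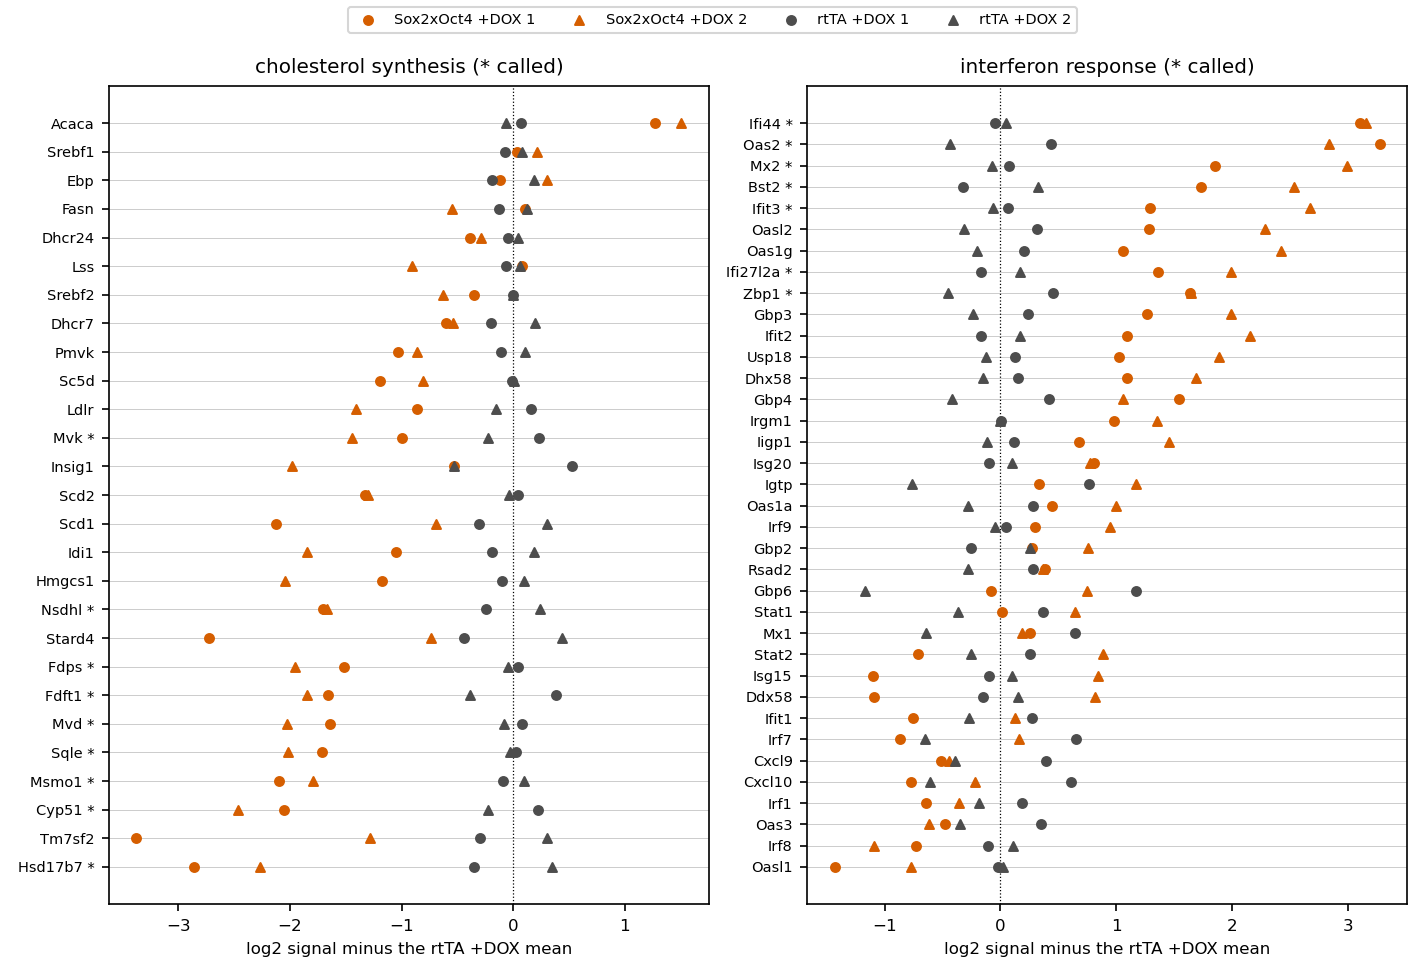
Each point is 1 array, with its log2 signal minus the rtTA +DOX mean of the gene on the x axis, for tested genes of cholesterol synthesis (left, with some not reported here left out) and the 36 of interferon response (right), ordered by their difference between the groups, and an asterisk marks genes called. Sox2xOct4 +DOX is orange and rtTA +DOX grey, with replicate 1 as circles and replicate 2 as triangles. The genes called in cholesterol synthesis were all lower in Sox2xOct4 +DOX, and the 7 called in interferon response were all higher.

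Of 19 genes of MHC and antigen processing, 7 fell and none rose (median -1.02), and 6 of the 7 belong to the class II pathway. H2-DMa, which loads peptides onto class II molecules, gave -1.52 and -0.97 in Sox2xOct4 +DOX, against 1.91 and 1.13 in rtTA +DOX (-2.76 ± 0.46, adjusted p = 0.0161). Its partner H2-DMb1 fell by 2.13 ± 0.39. Ciita, the master regulator of class II genes, gave -1.12 and -1.32 in Sox2xOct4 +DOX, against 0.57 and 0.15 in rtTA +DOX (-1.58 ± 0.30, adjusted p = 0.0228). The class II chains H2-Ab1 and H2-Eb1 and the invariant chain Cd74 also fell, and the 7th was H2-T3, a class I-like gene of intestinal epithelium. H2-DMa (-2.37 to -3.15) was lost without either rtTA +DOX replicate or Sox2xOct4 +DOX replicate 1, H2-DMb1 without rtTA +DOX replicate 1 (-1.65) and Sox2xOct4 +DOX replicate 1 (-2.04), and Ciita whichever array was left out (-1.37 to -1.79). The count of 7 was 0 without rtTA +DOX replicate 1 or Sox2xOct4 +DOX replicate 1, 1 without rtTA +DOX replicate 2 and 4 without Sox2xOct4 +DOX replicate 2.

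Markers of B cells, T cells and macrophages were measured beside these. Of 26 macrophage and granulocyte genes, 15 had values above 0 and 11 below (median 0.07). The macrophage markers Csf1r (-0.21, adjusted p = 0.827) and Cd68 (0.57, adjusted p = 0.421) were not called by limma. Of 24 B cell and plasma cell genes and 32 T cell genes, 0 were called by limma. Values were below 0 in 18 of the 24 and 27 of the 32, against 8802 of all 19056 genes. In Sox2xOct4 +DOX replicate 2, 22 of the 24 B cell genes lay under both rtTA +DOX arrays (median -0.99), against 9 in replicate 1 (median 0.17). Of the T cell genes 24 of 32 did so in replicate 2 (median -0.81) and 15 in replicate 1 (median -0.30). The share of all genes under both rtTA +DOX arrays was not counted, so these counts only describe the lists. The summed linear signal of the B cell list was 87.3 and 72.2 in Sox2xOct4 +DOX, against 93.1 and 88.1 in rtTA +DOX, and that of the T cell list was 21.2 and 13.6 in Sox2xOct4 +DOX, against 54.96 and 24.9 in rtTA +DOX. Of the T cell markers Cd3d gave -0.59 and -0.46 in Sox2xOct4 +DOX, against 0.60 and 0.06 in rtTA +DOX (adjusted p = 0.189). Cd8a, the cytotoxic T cell coreceptor, gave -0.81 and -2.22 in Sox2xOct4 +DOX, against 0.69 and -0.55 in rtTA +DOX (adjusted p = 0.181). The groups did not overlap in these 2 genes, and over the T cell list they did not in 14 of 32, against 52.7% of all genes. In Cd3e they did overlap: it gave -4.53 and -4.06 in Sox2xOct4 +DOX, against -3.18 and -4.14 in rtTA +DOX. The B cell marker Ms4a1 gave 0.47 and -0.76 in Sox2xOct4 +DOX, against 0.25 and 0.49 in rtTA +DOX. The part of these cells in the class II and interferon results was not tested.

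Regulators of cell identity were called in both directions. Of 18 pluripotency genes tested, 2 rose and 1 fell, against 3.19% higher and 3.15% lower over all genes. A further 9 were not well above background in any group. The 2 that rose were Pou5f1, whose probe does not tell the transgene from the endogenous gene, and Fbxo15. Fbxo15, a target of Oct4 and Sox2 in mouse embryonic stem cells, gave -2.96 and -2.15 in Sox2xOct4 +DOX, against -7.89 and -6.58 in rtTA +DOX, at least 18.2-fold higher (adjusted p = 0.0209). Klf4, which in the gut marks differentiated epithelium, gave 3.55 and 4.82 in Sox2xOct4 +DOX, against 6.38 and 6.91 in rtTA +DOX (-2.46 ± 0.52, adjusted p = 0.0326). Fbxo15 was lost whichever array was left out (4.03 to 5.34), and Klf4 without either rtTA +DOX replicate or Sox2xOct4 +DOX replicate 1 (-1.83 to -2.73). Of 15 Sox genes, 3 rose: Sox21, Sox11 (1.57 ± 0.30, adjusted p = 0.025) and Sox4 (1.42 ± 0.28, adjusted p = 0.0259). Sox11 (1.43 to 1.64) and Sox4 (1.24 to 1.61) were called only in the fit without Sox2xOct4 +DOX replicate 2. The Sox count was 1 without rtTA +DOX replicate 1, 0 without rtTA +DOX replicate 2 and 1 without Sox2xOct4 +DOX replicate 1.

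Of 30 intestinal transcription factors, 1 rose and 3 fell (median -0.72), against 3.19% higher and 3.15% lower over all genes. The 1 rise lay near that share. Foxa2, a regulator of endoderm, gave 2.23 and 2.35 in Sox2xOct4 +DOX, against 0.70 and 1.13 in rtTA +DOX (1.37 ± 0.29, adjusted p = 0.0314). Klf4 and Pparg (-1.39 ± 0.30) were among those that fell. Foxa2 (1.16 to 1.59) and Pparg (-1.31 to -1.48) were lost whichever array was left out. The count of 4 was 0 without either rtTA +DOX replicate or Sox2xOct4 +DOX replicate 1, and 2 without Sox2xOct4 +DOX replicate 2.

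Of 29 immediate early and stress genes, 1 rose and 4 fell, against 3.19% higher and 3.15% lower over all genes. The 1 rise lay near that share. Fos gave 0.43 and -0.03 in Sox2xOct4 +DOX, against 3.17 and 2.56 in rtTA +DOX (-2.66 ± 0.52, adjusted p = 0.0258), and Atf3 fell by 3.18 ± 0.62. Nr4a2, an orphan nuclear receptor, gave 0.52 and 1.57 in Sox2xOct4 +DOX, against -1.63 and -1.30 in rtTA +DOX (2.51 ± 0.36, adjusted p = 0.0100). Fos was lost whichever array was left out (-2.36 to -2.96), Atf3 without either rtTA +DOX replicate or Sox2xOct4 +DOX replicate 1 (-2.75 to -3.62), and Nr4a2 without either rtTA +DOX replicate (2.34 and 2.67). The count of 5 was 0 without either rtTA +DOX replicate and 1 without Sox2xOct4 +DOX replicate 1.

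Among 36 cell cycle genes, 33 had values above 0 (median 0.63), against 10254 of all 19056 genes. These values rested mainly on Sox2xOct4 +DOX replicate 1, with a median of 1.35 there and -0.15 in replicate 2. Of the 36, only 1 was called, lower, near the 3.15% of all genes. This was Cdkn1a, which encodes the inhibitor p21, lower by 2.42 ± 0.52. It was lost without either rtTA +DOX replicate or Sox2xOct4 +DOX replicate 1 (-1.80 to -2.49). Of 24 genes of the unfolded protein response, 23 had values below 0 (median -0.70), against 8802 of all 19056 genes, and 0 were called by limma. None of the genes of the respiratory chain (31 tested), Notch and secretory fate (23), tuft cells (17), simple epithelium keratins and junctions (23), endothelium (16), fibroblasts and matrix (24) or enteric neurons and glia (18) was called by limma either. Of 22 smooth muscle genes 2 fell, among them Ldb3 (-2.90 ± 0.44), beside the deficit of the list in Sox2xOct4 +DOX replicate 1 given above. Ldb3 was lost without either rtTA +DOX replicate or Sox2xOct4 +DOX replicate 1 (-2.44 to -3.23). The smooth muscle count was 0 in those fits and 4 without Sox2xOct4 +DOX replicate 2. Of 18 adipocyte genes 1 fell, Pparg, against 3.15% of all genes. Of 20 circadian clock genes 2 fell, against 0 without either rtTA +DOX replicate or Sox2xOct4 +DOX replicate 1. Of 11 pancreatic acinar genes 2 rose, among them Rnase1 (2.41 ± 0.53), while the trypsin gene Prss2 lay near background on all 4 arrays. Rnase1 was lost without either rtTA +DOX replicate or Sox2xOct4 +DOX replicate 1 (1.83 to 2.77).

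The comparison was last set beside that of Sox2 alone, Sox2 +DOX against Sox2 -DOX, which uses 4 other arrays on another slide. Over all 19056 genes tested, 576 rose (3.02%) and 911 fell (4.78%) in Sox2 +DOX. Of the 608 genes that rose in Sox2xOct4 +DOX, 214 also rose in Sox2 +DOX (35.2% of the 608 and 37.2% of the 576). Of the 600 that fell, 320 also fell (53.3% of the 600 and 35.1% of the 911). Genes called in opposite directions numbered 2 that rose in Sox2xOct4 +DOX and fell in Sox2 +DOX, and 0 the other way by limma. Slc37a2 rose by 7.38 and 7.65 in the 2 comparisons and Sox21 by 4.96 and 6.16, and Reg3a fell by 5.02 and 5.91. Abo, Nepn and Hao2 were called the same way in both but were near background in 1 group of each, so only bounds can be set side by side. Abo was at least 25.6-fold higher with both transgenes and at least 28.1-fold with Sox2 alone. The bounds were 318-fold and 74.2-fold higher for Nepn, and 28.3-fold and 32.1-fold lower for Hao2.

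The difference of the 2 log2 changes was tested in the same fit. It passed for 32 genes (0.168%), 28 with a higher (0.147%) and 4 with a lower change (0.021%) in Sox2xOct4 +DOX, and 1830 genes (9.6%) had an unadjusted p under 0.05. It passed for Pou5f1 (adjusted p = 0.00447), Nr0b1 (adjusted p = 0.00251) and Olfr713 (adjusted p = 0.00251), which were not well above background in rtTA +DOX or on any Sox2 array. Their fitted differences of 11.18, 7.44 and 7.17 are therefore not sizes. By the labels only the comparison of Sox2xOct4 +DOX holds the Oct4 transgene, so the pass of Pou5f1 was set by the design. With signals raised to the lowest one well above background on each array the differences were 8.91, 5.485 and 5.27, and all 3 passed again. Differences of responses raised in this way depend on these floors too. The floors were lower in Sox2 +DOX (-6.33 and -6.36) than in Sox2 -DOX (-5.98 and -5.94), so the raised differences are not sizes either. Nr0b1 gave -8.38 and -8.27 in Sox2 +DOX, against -8.07 and -7.97 in Sox2 -DOX. It was not well above background in Oct4 +DOX either, so among these groups it was measured on the Sox2xOct4 +DOX arrays only. Olfr713 was at least 9.32-fold higher with Oct4 alone than in rtTA +DOX (adjusted p = 0.000781).

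The difference also passed for Slc7a3 (5.95 ± 0.58), which was well above background on all these arrays, and for 4930432K21Rik (6.05, or 6.66 with signals raised) and Trp63 (5.64, or 4.43 with signals raised), which were not well above background in rtTA +DOX or Sox2 -DOX. It passed for the interferon response genes Oas2 (5.45 ± 0.62, adjusted p = 0.0228) and Ifi44 (4.42 ± 0.51, adjusted p = 0.0229). Oas2 gave -4.80 and -4.74 in Sox2 +DOX, against -2.47 and -2.29 in Sox2 -DOX, lower with Sox2 alone and higher with both transgenes. Over the interferon list, 17 of 36 fell with Sox2 alone (median -1.97) where 7 rose with both transgenes. Of the 32 T cell genes, 12 fell and 0 rose with Sox2 alone (median -1.77), while 0 were called with both transgenes (median -0.58). The part of such cells in the interferon values was not tested. Antigen processing genes fell in both, 13 of 19 with Sox2 alone and 7 with both, and none of them passed the test of the difference. For cholesterol synthesis 1 of 29 fell with Sox2 alone (median -0.54) and 11 with both, and again no member passed that test. Of the 4 lower, the named genes were Olfr1472 (-4.47) and Ptprt, a receptor tyrosine phosphatase (-4.11 ± 0.50). Olfr1472 was near background in all but Sox2 +DOX, and with signals raised it did not pass (-2.42, adjusted p = 0.158). Neither was called in Sox2xOct4 +DOX against rtTA +DOX.

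The count of 32 became 5 after normexp background correction with quantile normalization, 2 higher and 3 lower, and 1 of the 5 was among the 32 (Slc7a3). Quantile normalization alone gave 43, with 28 higher and 15 lower. Without single arrays the count ran from 5 to 52. Pou5f1, Nr0b1 and Olfr713 were called without each of the 8 arrays in turn. The other genes named as higher were lost without either rtTA +DOX replicate 1 or 2, with values of 6.08 and 5.82 for Slc7a3, 5.91 and 6.19 for 4930432K21Rik, 5.99 and 5.3 for Trp63, 5.89 and 5.01 for Oas2 and 4.37 and 4.46 for Ifi44. They were lost also whichever Sox2 +DOX or Sox2 -DOX array was left out, apart from 4930432K21Rik without Sox2 +DOX replicate 1 (6.66). Without Sox2xOct4 +DOX replicate 2, 4930432K21Rik (5.67), Trp63 (5.69) and Ifi44 (4.39) were lost as well. Olfr1472 (-3.95 to -4.84) and Ptprt (-3.84 to -4.34) were kept only without Sox2xOct4 +DOX replicate 2. Each response lies within 1 slide, but the 2 responses lie on different slides, so transgene and slide cannot be told apart in their difference. Sucrose is not recorded for the Sox2 -DOX mice, so the Sox2 response may hold DOX and sucrose as well as the transgene.

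**Figure D5:**
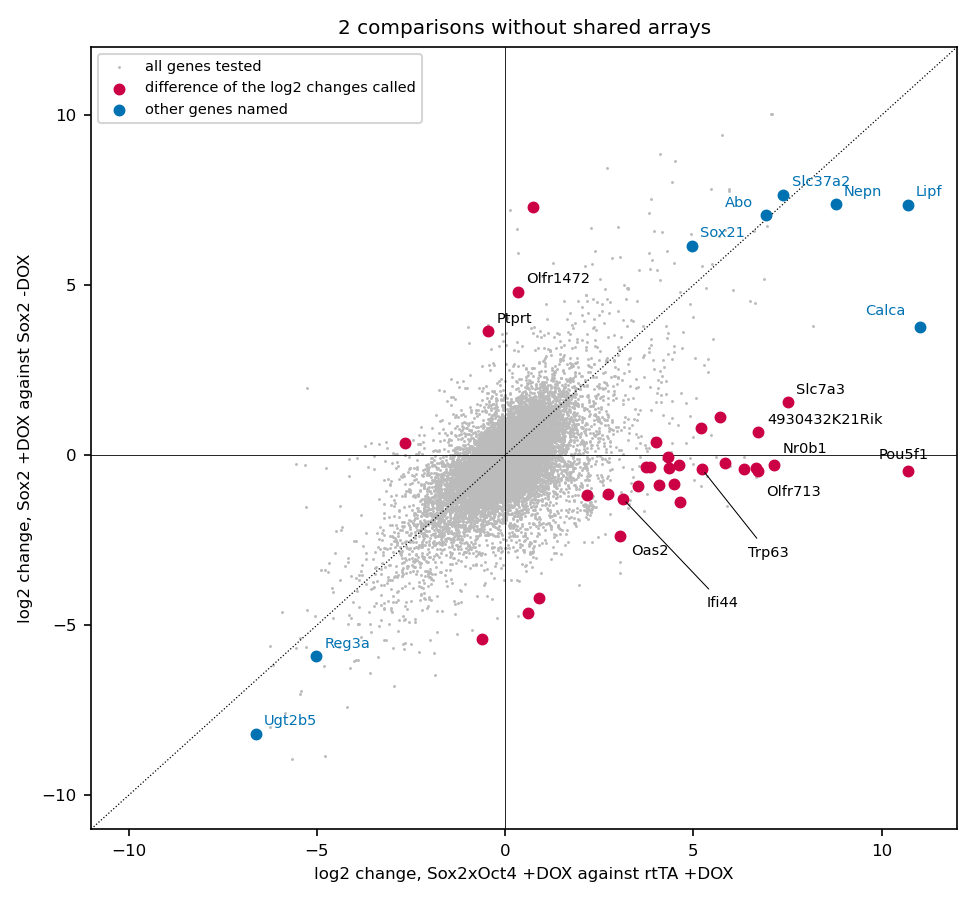
Each point is 1 gene, with its fitted log2 difference between Sox2xOct4 +DOX and rtTA +DOX on the x axis and that between Sox2 +DOX and Sox2 -DOX on the y axis, comparisons that share no array, and the dotted line marks equal differences. The 32 genes whose difference of the 2 passed the test are red, among them Pou5f1 and Nr0b1 far to the right at -0.48 and -0.30 on the y axis, where they were not well above background on any Sox2 array. Slc37a2 lies close to the line, at 7.38 and 7.65.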

How the data were processed

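Gene expression of mouse ileum was measured on 1-colour Agilent arrays, 2 each for Sox2xOct4 +DOX and rtTA +DOX, within a series of 10 arrays in 5 groups. The deposited values are scanner intensities per spot from Feature Extraction 10.7.1.1 on this slide, per the file headers, which give the processed intensity as background-subtracted and detrended within the array. The submitters' processing notes name Feature Extraction 9.1 instead. From these intensities, log2 of the processed signal minus the array's 75th percentile was computed, with control and outlier spots left out and replicate spots averaged. Probes had to be well above background in some group on both of its arrays, which left 28761, and each of 19056 genes was represented by its probe with the highest mean over all arrays. Names came from RefSeq tables for 80.2% of 41143 probes and from the files for the rest.

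All 10 arrays were fitted in limma 3.58.1 (R 4.3.3) with 1 mean per group, which left 5 residual degrees of freedom, with Benjamini-Hochberg adjustment across all genes. The number of arrays limits the precision. In simulated data with 200 of the 19056 genes changed, the fit called 0.299% of those changed by 1 log2 unit. It called 36.8% of those changed by 2 log2 units and 66.3% of those changed by 3. Fewer genes were changed there than the 1208 called in the real comparison, and the adjustment is stricter when fewer genes change. These percentages are therefore not those of the real fit. Each simulated gene also had the same spread in every group, unlike in the real arrays. Real replicates differed by a root mean square of 0.981 log2 units in Sox2xOct4 +DOX and 0.639 in rtTA +DOX. Figures and lists used Python 3.11.15. The rule for named genes took the transgenes Sox2 and Pou5f1, Nanog, Cdx2 and Sox21, the 15 largest rises and falls called without overlap, up to 4 called members of each list by p, and the 5 largest differences of responses each way. Members, lists, motifs and markers were chosen with earlier results of these data known. Alternatives were other background correction and normalization, no filter, a floor, all probes, a variance trend, only the arrays compared, a replicate block and leaving out each array. Some genes are not reported here.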

Additional observations from a re-analysis of the deposited data

Results flagged for a closer look

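The results here drew attention because the change in Sox2xOct4 +DOX against rtTA +DOX differed from that in Sox2 +DOX against Sox2 -DOX by a test of the difference itself, in log2 units and with limma's adjusted p. The difference was 11.18 for Pou5f1 (adjusted p = 0.00447), 7.44 for Nr0b1 (adjusted p = 0.00251) and 7.166 for Olfr713 (adjusted p = 0.00251). Pou5f1 encodes Oct4, and by the labels only the first comparison holds the Oct4 transgene, so its pass was set by the design. The difference was 6.049 for 4930432K21Rik, 5.949 for Slc7a3 and 5.645 for Trp63, with adjusted p-values of 0.0228, 0.0166 and 0.0228. Among interferon response genes it was 5.447 for Oas2 and 4.416 for Ifi44, with adjusted p-values of 0.0228 and 0.0229.

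It ran the other way for Olfr1472, at -4.467 (adjusted p = 0.0491), and Ptprt, at -4.106 (adjusted p = 0.0282). Olfr1472 was not well above background in Sox2xOct4 +DOX (-9.0 and -7.97) or rtTA +DOX (-9.19 and -8.45), and gave -3.37 and -3.12 in Sox2 +DOX, against -8.10 and -8.0 in Sox2 -DOX. Pou5f1, Nr0b1, Olfr713, 4930432K21Rik, Trp63 and Olfr1472 were near background in some of these groups, so their fitted differences are not sizes. With signals raised to the lowest one well above background on each array they were 8.906, 5.485, 5.273, 6.656, 4.426 and -2.42, and the call of Olfr1472 was lost (adjusted p = 0.158). Raised differences depend in part on the arrays' floors, which differed between Sox2 +DOX and Sox2 -DOX, and are not sizes either. After normexp correction with quantile normalization, only Slc7a3 of these 10 genes kept its call (4.874). Beyond Pou5f1, what causes these differences was not tested.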

How the results depend on the processing

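The 1208 calls became 776 without a filter on dim probes and 473 with only the 4 arrays compared, of which 729 and 410 were among the 1208. Without single arrays the count ran from 105 to 1076. The 32 differences of responses became 5 after normexp with quantile normalization and 16 with a variance trend, and ran from 5 to 52 without single arrays. With the replicate block 1201 genes and 39 differences were called; replicate numbers are not known to pair the arrays, and deviations of same-numbered arrays correlated with r = 0.243. Fewer samples give these smaller fits fewer degrees of freedom, and the cause of the other changes was not tested. Of 107 named values none reversed under any alternative, but most were named for a large change without overlap or a small p, so few could reverse. The 107 leave out Olfr1472 in Sox2xOct4 +DOX against rtTA +DOX, where it was not called. Its sign there did change, at -0.034 without rtTA +DOX replicate 1 and 0.708 without rtTA +DOX replicate 2. Of the 107 values, 21 lost their call after normexp with quantile normalization, 12 without the filter and 40 with only the arrays compared. A variance trend cost 4 of them their call, a floor 3, quantile normalization 2 and the replicate block 2. Without rtTA +DOX replicate 1, 76 of 107 lost it. Signals near background have no order, so fitted differences of genes dim in 1 group are not sizes, and those genes are given by bounds or with signals raised to the floor.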
